A study of Mus musculus with 12 samples.

Results

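Border-associated macrophages were followed through 9 genes that mark them: Mrc1, Cd163, Lyve1, Pf4, F13a1, Cbr2, Ms4a7, Stab1 and Folr2. The genes were picked by symbol and matched to the Entrez gene IDs of a raw count table of 27179 IDs. All 9 were found, and all 9 passed the filter on low counts that 17937 genes passed. The question was whether these genes differed between hippocampi of wild-type (WT) mice and of mice with 1 working copy of Nell-1, which encodes a secreted EGF-like protein best known in bone formation.

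The brain holds several kinds of macrophage. Microglia live in the tissue itself, whereas border-associated macrophages sit in the meninges, in the sleeves around arterioles and venules and in the choroid plexus. They take up debris, haemoglobin complexes and hyaluronan with scavenger receptors, and many of the genes listed here encode such receptors or molecules that macrophages secrete. Most of these genes are not exclusive to them: Lyve1 is also a marker of lymphatic endothelium, Pf4 of platelets and Stab1 of sinusoidal endothelium.

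RNA was taken from the hippocampus of 12 mice aged 3 months, 6 WT littermates and 6 Nell-1+/6R mice, with 3 females and 3 males of each genotype. Nell-1+/6R mice carry 1 copy of the 6R allele, a chemically (ENU) induced loss-of-function mutation of the whole animal from conception; mice with 2 such copies die at birth. Animals were decapitated and the hippocampus was dissected in ice-cold medium, and no perfusion to clear blood is described. The sample titles of WT mice also hold the word Het, but their genotype field and short names say WT, and the Nell1 counts separated the genotypes. Nell1 stood at 36.5 ± 4.55 counts per 1e6 counts (CPM; SD, n = 6) in WT and at 19.1 ± 1.77 CPM (SD, n = 6) in the heterozygotes, whose 6 values all lay below the lowest WT value. Total counts ran from 10834905 to 16016317 per mouse. Genes of hippocampal neurons were abundant in both genotypes, with Neurod6 at 182 CPM in WT against 195 CPM in Nell-1+/6R mice and Wfs1, a gene of CA1 pyramidal neurons, at 187 and 172 CPM. The choroid plexus is no part of the hippocampus, yet the summed level of 11 of its epithelial genes ranged from 46.0 to 5239 CPM among the mice, so the libraries differed widely in choroid plexus content.

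The 9 genes lie on 8 chromosomes. Lyve1 (chr7:110850607-110863239, GRCm38) and Folr2 (chr7:101839988-101857194) share chromosome 7 with Nell1, 60.0 and 51.0 Mb beyond its end, and the other 7 lie elsewhere: Mrc1 at chr2:14229392-14332057, Cd163 at chr6:124304656-124330527, Pf4 at chr5:90772435-90773383, F13a1 at chr13:36867178-37050244, Cbr2 at chr11:120729489-120732114, Ms4a7 at chr19:11321039-11336146 and Stab1 at chr14:31139013-31168641. These spans are those of GENCODE M21, and the counts are of reads in the exons within them. RefSeq start-site windows (GRCm38.p6) were found for 8 of the 9 genes. Windows are shown for the 4 genes with an entry that passed the thresholds given below, all called lower in Nell-1+/6R mice: Mrc1 (chr2:14229164-14229463, plus strand), Cd163 (chr6:124304401-124304700, plus strand), Pf4 (chr5:90772185-90772484, plus strand) and Cbr2 (chr11:120731972-120732271, minus strand). Each runs 5′ to 3′ from 250 bases before the start site to 50 bases after it. Capitals mark matches to the core of the PU box, GAGGAA, the site of the macrophage factor PU.1, and to a MAF half-site, TGCTGAC, on either strand.
Mrc1: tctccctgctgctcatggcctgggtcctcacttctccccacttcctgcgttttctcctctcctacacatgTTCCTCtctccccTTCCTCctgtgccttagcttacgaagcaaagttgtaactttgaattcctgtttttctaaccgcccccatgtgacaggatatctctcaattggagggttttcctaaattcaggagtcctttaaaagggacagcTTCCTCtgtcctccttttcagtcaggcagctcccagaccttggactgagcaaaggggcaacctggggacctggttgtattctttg
Cd163: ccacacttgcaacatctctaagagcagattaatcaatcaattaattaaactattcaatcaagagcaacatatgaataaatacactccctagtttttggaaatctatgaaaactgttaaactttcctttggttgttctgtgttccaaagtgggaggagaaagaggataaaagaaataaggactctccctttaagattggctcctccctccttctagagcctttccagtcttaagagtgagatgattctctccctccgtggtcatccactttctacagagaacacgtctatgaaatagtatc
Pf4: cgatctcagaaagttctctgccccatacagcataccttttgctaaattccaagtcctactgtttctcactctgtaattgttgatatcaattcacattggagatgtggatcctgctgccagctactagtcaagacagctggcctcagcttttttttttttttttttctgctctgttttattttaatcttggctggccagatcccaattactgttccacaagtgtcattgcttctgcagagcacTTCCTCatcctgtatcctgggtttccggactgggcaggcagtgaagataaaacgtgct
Cbr2: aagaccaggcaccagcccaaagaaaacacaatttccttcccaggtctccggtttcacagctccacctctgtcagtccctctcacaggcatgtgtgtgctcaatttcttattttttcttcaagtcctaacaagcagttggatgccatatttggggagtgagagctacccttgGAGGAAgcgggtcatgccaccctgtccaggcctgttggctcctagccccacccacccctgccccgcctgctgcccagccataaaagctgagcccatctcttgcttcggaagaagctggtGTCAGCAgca

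The GAGGAA letters occurred in the windows of 6 of the 8 genes, Mrc1 (3 times), F13a1 (3 times over its 2 windows), Pf4, Cbr2, Ms4a7 and Stab1, and in none for Cd163 and Folr2. Among all windows of the same length, 28.3% held them, and 31.3% of genes had at least 1 such window. The TGCTGAC letters occurred in 1 of the 8, Cbr2, 41 bases after the start site, against 5.28% of all genes with a window. The matches to both motifs did not overlap each other. The matches describe letters only and were not tied to binding. The gene for PU.1 itself, Spi1, stood at 3.97 CPM in WT against 3.86 CPM in Nell-1+/6R mice (log2 fold change -0.05, SE 0.186). Maf stood at 21.9 and 18.8 CPM (log2 fold change -0.22, SE 0.085), which did not reach the fold threshold given below.

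All 9 genes had a lower fitted level in Nell-1+/6R mice than in WT mice, and 5 of them, Mrc1, Cd163, Lyve1, Pf4 and Cbr2, passed the study's thresholds (unadjusted p under 0.05 and a fold above 1.5) in an edgeR fit with sex. The same thresholds called 1.07% of all tested genes lower and 0.385% higher, and 50.3% of all genes had a log2 fold change below 0. The 9 genes were chosen with earlier results of these data known, so these shares are a description and no test of the 9 as a set. The median log2 fold change was -0.82 over the 9 genes and -0.0009 over all 17937. After Benjamini-Hochberg adjustment over all genes tested, none of the 9 passed: edgeR's adjusted p was 0.99986 for each, and 0.039% of all genes had an adjusted p under 0.05. At an unadjusted p under 0.05, without the fold threshold, Stab1 joined the 5, and 2.2% of all genes were lower by that rule. The count of 5 fell to 3 in 6 of the 12 fits that left out 1 mouse and to 1 with the leptomeningeal covariate described below. It was 2 under either stricter filter on low counts, where only 4 and 5 of the 9 genes were tested. Pf4 and Cbr2 were tested under neither. Over all 12 mice no gene of the 9 had genotypes that did not overlap, as 0.1% of all genes did in the lower direction. In bulk tissue, fewer of these macrophages and less RNA in each of them cannot be told apart.

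The largest group was the scavenger and endocytic receptors. Mrc1 encodes the mannose receptor CD206, which takes up glycoproteins. In WT mice it ran from 2.05 through a median of 2.99 to 4.58 CPM, and in Nell-1+/6R mice from 1.08 through 1.35 to 2.76 CPM. All 6 Nell-1+/6R mice lay below the WT median and 4 of them below the lowest WT mouse. Mean levels were 3.22 ± 1.03 and 1.68 ± 0.68 CPM (SD, n = 6 each), on 256 and 135 counts in all. Its log2 fold change was -0.93 with a standard error (SE) of 0.265 (edgeR p = 0.00343), a level 1.91-fold lower, and an exact two-sided permutation test over all assignments of 6 of the 12 mice to each genotype gave p = 0.0152.

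Cd163 encodes the receptor for haemoglobin bound to haptoglobin. Its level ran from 1.30 through 1.58 to 1.95 CPM in WT and from 0.489 through 0.722 to 1.84 CPM in Nell-1+/6R mice. In 5 of 6 Nell-1+/6R mice it was below every WT mouse, and the exception was female replicate 3. The means were 1.6 ± 0.30 and 0.906 ± 0.502 CPM (SD, n = 6 each). This gave a log2 fold change of -0.82 (SE 0.290, edgeR p = 0.0137), and the exact permutation p was 0.0173.

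Lyve1 encodes a receptor for hyaluronan. It ran from 0.695 through 0.827 to 1.59 CPM in WT and from 0.338 through 0.389 to 1.42 CPM in Nell-1+/6R mice. The same female replicate 3 stood at 1.42 CPM, while the other 5 Nell-1+/6R mice lay between 0.338 and 0.407 CPM, under all WT mice. These are small counts: that mouse had 20 and each of the other 5 had 5. In the fit Lyve1 had a log2 fold change of -0.78 (SE 0.359, edgeR p = 0.0464), a level 1.72-fold lower, and the exact permutation p of 0.0563 did not pass 0.05. The edgeR call was lost in 9 of the 12 fits that left out 1 mouse, in which the log2 fold change ran from -0.61 to -1.28, the latter without Nell-1+/6R female replicate 3.

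Stab1, which encodes stabilin-1, a receptor for modified lipoproteins and apoptotic cells, was the most abundant of the 9. It ran from 20.4 through 25.3 to 31.0 CPM in WT and from 16.9 through 20.8 to 24.7 CPM in Nell-1+/6R mice, on 1977 and 1669 counts. All 6 Nell-1+/6R mice were below the WT median, and 4 WT mice were above every Nell-1+/6R mouse. For Stab1 the log2 fold change was -0.29 (SE 0.097, edgeR p = 0.0101), a level 1.22-fold lower and so short of the fold threshold, and the exact permutation p was 0.0519.

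Folr2 encodes folate receptor beta. It ran from 0.205 through 0.985 to 1.39 CPM in WT and from 0.0815 through 0.288 to 1.07 CPM in Nell-1+/6R mice. The genotypes overlapped widely, with 1 Nell-1+/6R mouse below every WT mouse. Its log2 fold change was -0.97, as large as that of Mrc1, but with a standard error of 0.545 (edgeR p = 0.0983, exact permutation p = 0.156). Folr2 was not called with all 12 mice. Single mice decided this: it passed the thresholds without Nell-1+/6R female replicate 1 (-1.50, SE 0.540) and without WT female replicate 3 (-1.23, SE 0.494). Of its 1546 exon bases 975 lie under transcripts of other genes, the antisense gene Gm10602 among them, and no source used here gives the strand setting of the counting, so part of its 62 and 33 counts cannot be assigned to Folr2 with certainty.

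Of the 2 secreted products, 1 passed the thresholds. Pf4 encodes platelet factor 4, a chemokine. It ran from 0.205 through 0.460 to 0.618 CPM in WT and from 0.0708 through 0.175 to 0.307 CPM in Nell-1+/6R mice. In 5 WT mice it was above every Nell-1+/6R mouse, with WT female replicate 3 as the exception. For Pf4 the log2 fold change was -1.33 (SE 0.422, edgeR p = 0.00740), a level 2.51-fold lower and the steepest of the 9, and the exact permutation p was 0.00649. It rests on 35 counts over 6 WT mice and 14 over 6 Nell-1+/6R mice.

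F13a1 encodes the A subunit of coagulation factor XIII, a transglutaminase that cross-links fibrin. It ran from 0.927 through 1.53 to 2.57 CPM in WT and from 0.609 through 1.36 to 2.12 CPM in Nell-1+/6R mice. The ranges overlapped over most of their length. Fitted with sex, its log2 fold change was -0.36 (SE 0.277, edgeR p = 0.215), with an exact permutation p of 0.268. It ran from -0.21 without Nell-1+/6R female replicate 1 to -0.52 without female replicate 3 of that genotype.

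The remaining 2 genes encode an enzyme and a membrane protein. Cbr2, carbonyl reductase 2, ran from 0.614 through 0.971 to 1.47 CPM in WT and from 0.158 through 0.474 to 1.20 CPM in Nell-1+/6R mice. As with Cd163 and Lyve1, 5 of 6 Nell-1+/6R mice were below every WT mouse and female replicate 3 was not. Cbr2 had a log2 fold change of -0.90 (SE 0.365, edgeR p = 0.0280, exact permutation p = 0.0303), on 79 and 44 counts, and the call was lost in 7 of the 12 fits that left out 1 mouse, with log2 fold changes of -0.73 to -0.86 in those 7. Of the 50-base stretches in its transcripts, the length of the reads, 12.1% also occur in transcripts of Gm11771, so some reads may have been shared with or lost to that copy.

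Ms4a7, a member of the MS4A family of membrane-spanning proteins, was close to the limit of detection. Its 6 WT mice held 23 counts and its 6 Nell-1+/6R mice 20. It had 0 counts in WT female replicate 3, where 3 counts, the limit that a count of 0 allows, would be 0.205 CPM. The ranges, up to 0.615 CPM in WT and from 0.0676 to 0.613 CPM in Nell-1+/6R mice, were nearly the same. The log2 fold change was -0.22 with a standard error of 0.693 (edgeR p = 0.752, exact permutation p = 0.844), so a difference as large as that of Mrc1 was not detectable at this depth.

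**Figure D1:**
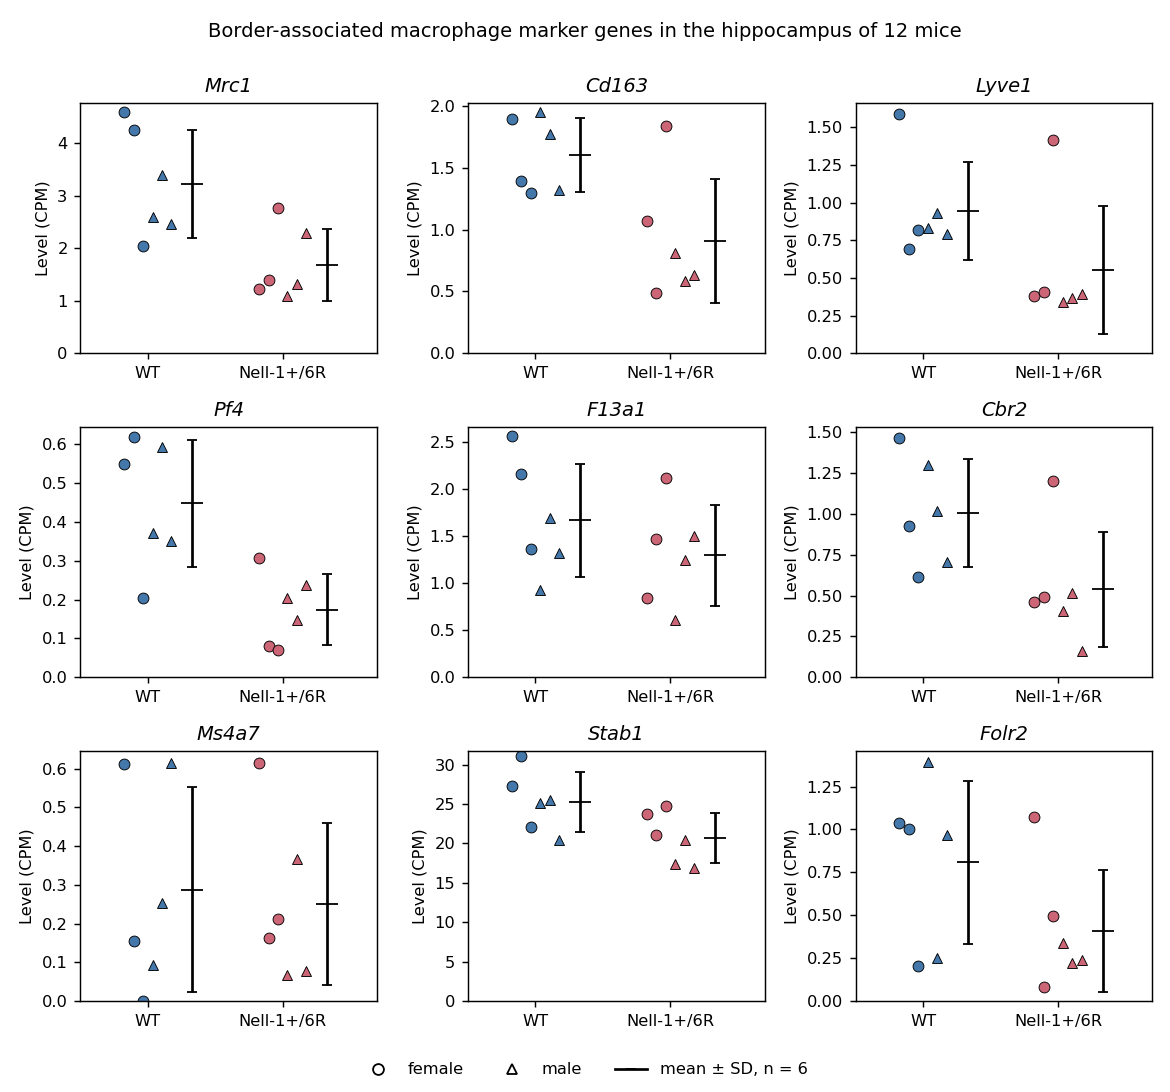
Level of each of the 9 marker genes in CPM (y axis) by genotype (x axis), 1 symbol per mouse, circles for females and triangles for males, with bars for mean ± SD (n = 6). Most Nell-1+/6R mice lie below the WT mice for Mrc1, Cd163, Lyve1, Pf4 and Cbr2, and 1 Nell-1+/6R female stands among the WT mice for Cd163, Lyve1 and Cbr2.

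Levels were compared between genes as CPM per kilobase of exon. In WT mice Stab1 was highest at 2.45 ± 0.37 CPM per kb (SD, n = 6), followed by Cbr2 at 0.757, Pf4 at 0.621, Folr2 at 0.524, Mrc1 at 0.505, Lyve1 at 0.323, Cd163 at 0.294, F13a1 at 0.248 and Ms4a7 at 0.0646 CPM per kb. Stab1 stood apart from Cbr2 and F13a1 from Ms4a7, whereas the ranges of mean ± SD overlapped between all other neighbours in this order. Mrc1, which gave the most reads after Stab1, was thus in the middle of the order once its 6371 exon bases were counted. Stab1 also varied least among WT mice, with a coefficient of variation of 15.0%, against 18.8% for Cd163 and 92.1% for Ms4a7.

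Because Stab1 supplies most of the summed counts, the other 8 genes were also summed without it. That sum ran from 6.55 through 9.68 to 14.3 CPM in WT and from 3.86 through 5.16 to 10.1 CPM in Nell-1+/6R mice. In 5 Nell-1+/6R mice it lay between 3.86 and 5.98 CPM, below every WT mouse, and female replicate 3 at 10.1 CPM was exceeded by 2 WT mice. The means were 9.99 ± 2.62 and 5.81 ± 2.24 CPM (SD, n = 6 each), a difference of -41.9%. With Stab1 included the means were 35.2 ± 5.89 and 26.5 ± 5.0 CPM, a difference of -24.6%. Leaving out WT female replicate 1 and Nell-1+/6R female replicate 3 together, the highest mouse of each genotype in the sum without Stab1, gave 5 called genes, beside 1.06% of all genes called lower. These 2 mice were picked after their values were seen.

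Within the sexes, 3 mice stood against 3. In males, the genotypes did not overlap for 5 genes, Mrc1, Cd163, Lyve1, Pf4 and Cbr2, each lower in Nell-1+/6R mice, and 5.68% of all tested genes behaved so. Cd163 in males was 1.68 ± 0.33 CPM in the 3 WT and 0.677 ± 0.118 CPM in the 3 Nell-1+/6R mice (SD). Lyve1 was 0.852 ± 0.071 and 0.367 ± 0.029 CPM, and Cbr2 was 1.01 ± 0.30 and 0.359 ± 0.182 CPM. The study's thresholds called Cd163 (log2 fold change -1.29, SE 0.406), Cbr2 (-1.44, SE 0.537) and Lyve1 (-1.20, SE 0.553) in males, 3 of 9 genes, beside 1.61% of all genes called lower.

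In females, none of the 9 genes was free of overlap, as 3.09% of all genes were in the lower direction. The thresholds called Mrc1 (log2 fold change -1.0, SE 0.378) and Pf4 (-1.52, SE 0.623), 2 of 9, beside 0.97% of all genes called lower. Mrc1 in females was 3.63 ± 1.38 CPM in the 3 WT and 1.79 ± 0.84 CPM in the 3 Nell-1+/6R mice (SD). The difference between the sexes was itself tested and passed for no gene of the 9: the lowest unadjusted interaction p in edgeR was 0.137, for Cd163 (log2 difference, male minus female, -0.88, SE 0.554), and 3.09% of all genes had an interaction p under 0.05. Without Nell-1+/6R female replicate 2 the interaction of Cd163 passed (-1.22, SE 0.455, unadjusted).

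**Figure D2:**
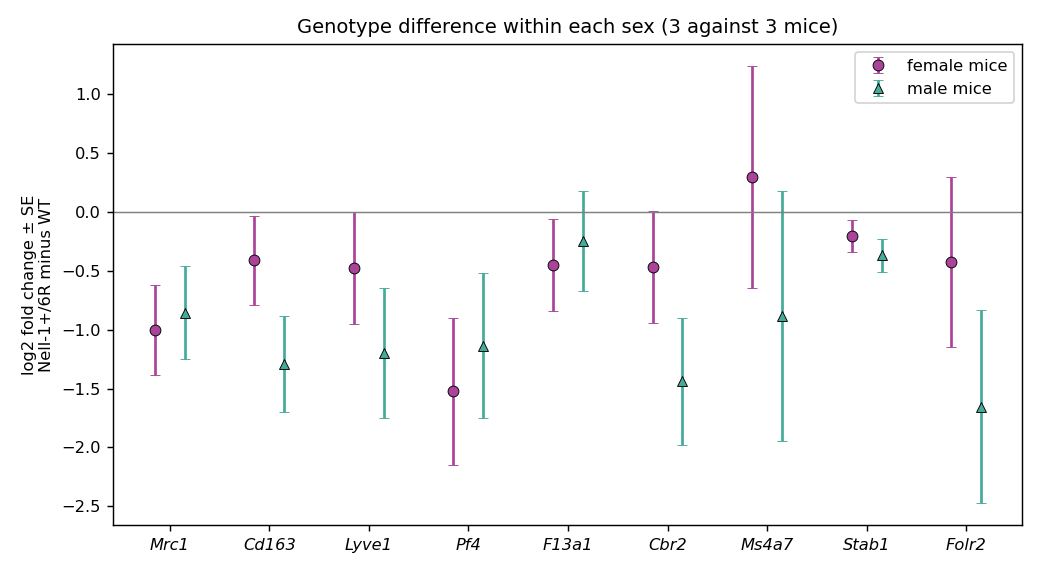
Log2 fold change of each gene between Nell-1+/6R and WT mice (y axis, points with standard error from edgeR), for females (circles) and males (triangles), 3 mice against 3. The error bars of both sexes are long, and Mrc1 lies at -1.0 in females and -0.86 in males while Cd163 lies at -0.41 and -1.29.

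Across mice of the same sex and genotype the genes varied with each other. After the 4 group means were subtracted from log2(CPM + 0.5), 34 of the 36 pairs of genes had a Pearson correlation above 0 over the 12 mice, with a median of 0.37 and a range from -0.21 to 0.86. Each gene was also set against the mean of the other 8, and r was highest for Mrc1 at 0.69 and lowest for Ms4a7 at 0.33. These points share a library and its depth, and the values are given as a description.

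The genes most like the mean of the 9 by the same measure were then sought among 13735 genes with a mean count of at least 20. The 10 closest were Col1a2 (r = 0.94), Uaca (0.94), Anpep (0.94), Col3a1 (0.93), Slc6a20a (0.92), Tox (0.92), Fmod (0.92), Mrc2 (0.92), Eya2 (0.91) and Lrrk1 (0.91). Over all 13735 genes r ran from -0.95 to 0.94, so single values of this size occurred in both directions. Col1a2 and Col3a1 encode fibrillar collagen chains and Fmod a collagen-binding proteoglycan, and all 3 were in the list of leptomeningeal fibroblast genes. The median r was 0.78 over 13 genes of that list, 0.47 over 8 mural cell genes, 0.45 over 8 blood endothelial genes, 0.36 over 3 MHC class II genes, 0.33 over 5 other perivascular and border macrophage genes, 0.29 over 11 choroid plexus genes and -0.13 over 12 microglial genes, and 0.02 over all genes compared.

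Other genes of perivascular and border macrophages showed both directions. Of 24 listed, 22 were tested, 17 had a log2 fold change below 0, and 2 passed the thresholds, both lower. Siglec1, the sialic acid receptor CD169, fell from 1.17 CPM in WT to 0.476 CPM in Nell-1+/6R mice (log2 fold change -1.29, SE 0.379). Clec12a, an inhibitory lectin receptor, rested on 13 and 3 counts (-1.91, SE 0.745). Dab2, an endocytic adaptor, was at 13.3 and 9.54 CPM (-0.50, SE 0.235) and did not pass, nor did Cd38 at 5.81 and 5.71 CPM or the iron exporter Slc40a1 at 9.79 and 9.63 CPM. The median of the list was -0.40. Of 7 genes of MHC class II, which some border-associated macrophages carry, 6 were below 0 with a median of -0.52 and none passed; the invariant chain gene Cd74 was at 5.86 and 4.37 CPM (-0.56, SE 0.479).

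Genes that all macrophages of the brain share were counted next. Microglia express them too, and what each cell type gave to their levels cannot be told apart. Of 16 pan-macrophage genes 8 were below 0 and 8 above, with a median of -0.005, and 1 passed, Lyz2, which encodes lysozyme (5.25 and 3.50 CPM, log2 fold change -0.60, SE 0.228). Of 8 genes of macrophage lineage and survival none passed, with a median of -0.03: Csf1r, the receptor for the growth factors Csf1 and Il34, was at 130 and 128 CPM (-0.03, SE 0.061). None of 12 microglial genes passed, with a median of -0.04. Summed, they came to 395 ± 14.6 CPM in the 6 WT mice against 388 ± 17.8 CPM in the 6 Nell-1+/6R mice (SD). As a share of that microglial sum, the 8 marker genes without Stab1 came to 2.53 ± 0.67% in WT and 1.51 ± 0.63% in Nell-1+/6R mice, with 5 of 6 Nell-1+/6R mice below the lowest WT mouse. With the microglial sum in place of the library size, 4 of the 9 genes passed the thresholds, beside 0.842% of all genes called lower, and the call lost was Lyve1 (-0.75, SE 0.377).

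**Figure D3:**
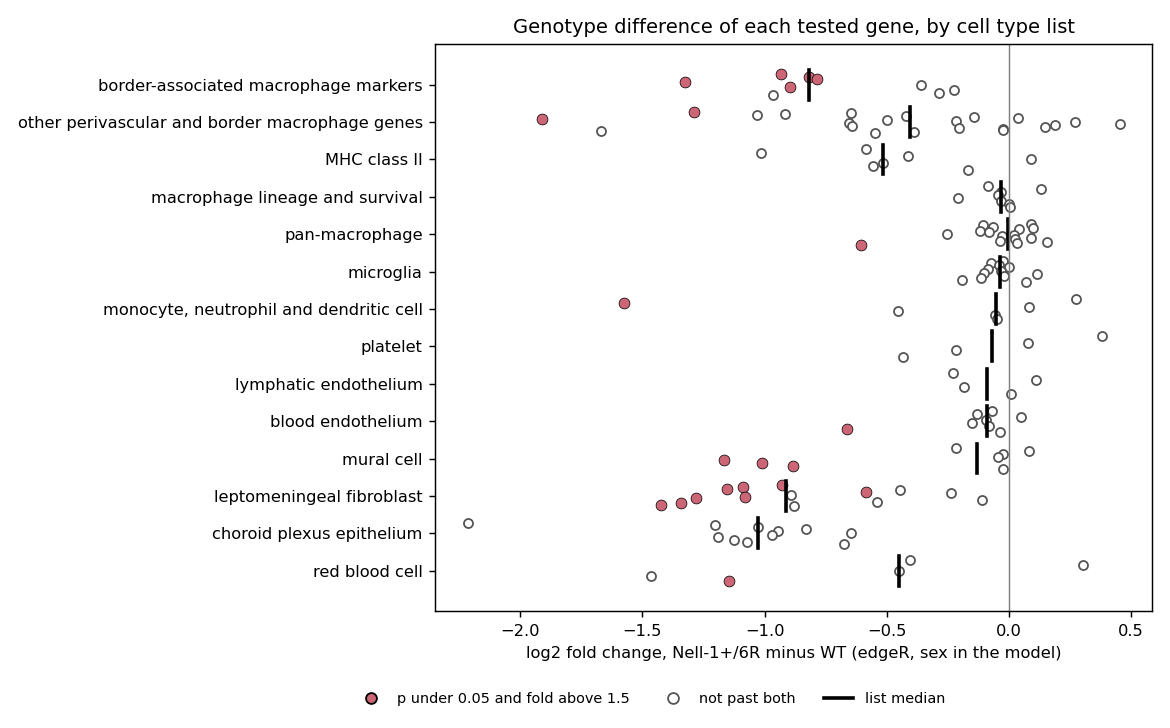
Log2 fold change between Nell-1+/6R and WT mice (x axis, edgeR with sex) of every tested gene in 14 lists of cell type genes (y axis), filled where p was under 0.05 and the fold above 1.5, with a bar at each list's median. The marker genes (median -0.82) and leptomeningeal fibroblast genes (-0.91) lie left of 0, and the microglial genes (-0.04) cluster at it.

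Genes of fibroblasts and smooth muscle at the brain's borders and vessels were also called lower. Of 14 leptomeningeal fibroblast genes all 14 were below 0 and 8 passed the thresholds, with a median of -0.91: Col1a1, Col1a2, Col3a1, Lum, Slc6a13, Slc22a6, Fmod and Aldh1a2. Col1a1 fell from 13.3 to 6.95 CPM (log2 fold change -0.93, SE 0.245) and Aldh1a2, the retinoic acid-making enzyme of the meninges, from 10.8 to 4.10 CPM (-1.42, SE 0.458). The most abundant, Igf2, was at 143 and 95.9 CPM and did not pass (-0.89, SE 0.595). Their summed level ran from 177 to 481 CPM in WT and from 112 to 429 CPM in Nell-1+/6R mice, so the genotypes overlapped, with means of 320 ± 114 and 212 ± 124 CPM (SD, n = 6 each). Of 8 mural cell genes 3 passed, all lower and all of smooth muscle, Acta2 (-1.17), Myh11 (-1.01) and Tagln (-0.88), whereas Pdgfrb (-0.22, SE 0.081) and Cspg4 (-0.03, SE 0.090), which pericytes express, did not. Of 8 blood endothelial genes 1 passed, Vwf (-0.67, SE 0.15), and the median was -0.09.

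The marker genes were also set against the leptomeningeal sum. The 8 marker genes without Stab1 came to 3.29 ± 0.74% of the leptomeningeal sum in WT and 3.10 ± 0.93% of it among the heterozygotes (SD, n = 6 each), with ranges of 2.02 to 4.03% and 1.39 to 4.07%. Against the mural cell sum they came to 7.33 ± 1.33% in WT and 5.32 ± 1.44% among the heterozygotes, 5 of which lay below the lowest WT mouse, a difference of -27.4%. When the log2 of the leptomeningeal sum was added to the model, 1 of the 9 genes passed the thresholds, Mrc1 (log2 fold change -0.73, SE 0.309), beside 0.524% of all genes called lower. Under that fit Cd163 was at -0.53 (SE 0.299), Lyve1 at -0.47 (SE 0.391), Pf4 at -0.99 (SE 0.475), Cbr2 at -0.62 (SE 0.411) and Folr2 at -0.33 (SE 0.506), and Ms4a7 turned to 0.97 (SE 0.591). This covariate was chosen after its values were seen. Igf2 alone gave 143 of the mean leptomeningeal sum of 320 CPM in WT and 95.9 of 212 CPM among the heterozygotes. The sum was highest in WT female replicate 1, Nell-1+/6R female replicate 1 and WT male replicate 3, at 481, 429 and 423 CPM. These mice also had the highest choroid plexus sums. How far the leptomeningeal sum followed leptomeninges alone was not tested. How much of the difference in the marker genes came from unequal amounts of attached meninges and vessels, and how much from the macrophages themselves, was not tested.

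**Figure D4:**
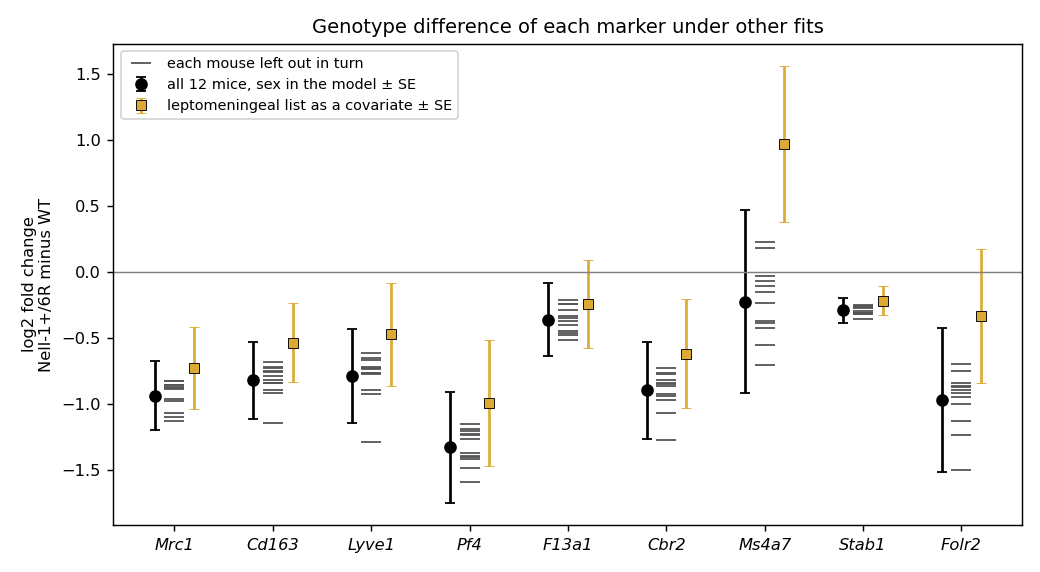
Log2 fold change of each gene between Nell-1+/6R and WT mice (y axis): all 12 mice with sex in the model (circles, ± SE), each mouse left out in turn (dashes), and with the leptomeningeal sum as a covariate (squares, ± SE). With the covariate Mrc1 moves from -0.93 to -0.73 and Lyve1 from -0.78 to -0.47, and Ms4a7 crosses 0.

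The remaining lists were set beside the marker genes in the same way. The choroid plexus sum was highest in Nell-1+/6R female replicate 1, at 5239 CPM, where the 8 marker genes stood at 5.98 CPM, and lowest in Nell-1+/6R female replicate 3, at 46.0 CPM, where they stood at 10.1 CPM. In some other mice both were high or both low. WT female replicate 1 had 2130 CPM of choroid plexus genes and 14.3 CPM of the marker genes, and the 3 Nell-1+/6R males had 47.8 to 81.3 CPM and 3.86 to 5.54 CPM. The WT males did not follow this. Replicate 3 of them had 4718.5 CPM of choroid plexus genes and 8.52 CPM of the marker genes, whereas replicates 1 and 2 had 134 and 135 CPM and 9.46 and 9.89 CPM. All 11 choroid plexus genes were below 0, with a median of -1.03, and none passed; the transthyretin gene Ttr was at 1179 and 820 CPM (-2.21, SE 2.28). Of the genes of platelets, which also make Pf4, 4 of 6 were tested and none passed: Itga2b was at 2.37 and 2.05 CPM, and the chemokine gene Ppbp held 4 and 1 counts and was not tested. Of the genes of lymphatic endothelium, which also makes Lyve1, 4 of 5 were tested and none passed, and Ccl21a had 0 counts in all 12 mice. In WT, Gp1bb gave 9.63 of the platelet list's mean sum of 12.4 CPM. Reln gave 41.7 and Prox1 23.3 of the lymphatic list's 84.0 CPM. Whether these genes came from platelets or lymphatic endothelium was not tested. Of the monocyte, neutrophil and dendritic cell genes 6 of 10 were tested and 1 passed, the chemokine receptor gene Ccr2 on 19 and 6 counts (-1.58, SE 0.676). Of 5 red blood cell genes tested 1 passed, Slc4a1 on 50 and 22 counts (-1.14, SE 0.372). The haemoglobin gene Hba-a2 was at 11.6 and 8.60 CPM (-0.40, SE 0.159), with all 6 Nell-1+/6R mice below the WT median, and Alas2, of haem synthesis, at 6.49 and 4.72 CPM (-0.45, SE 0.196), both short of the fold threshold. The median of the red cell list was -0.45, and its summed level ran from 11.8 to 29.5 CPM in WT and from 9.54 to 17.3 CPM among the heterozygotes, a difference of -26.5% between the means. The part of these cells in the marker genes' difference was not tested.

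**Figure D5:**
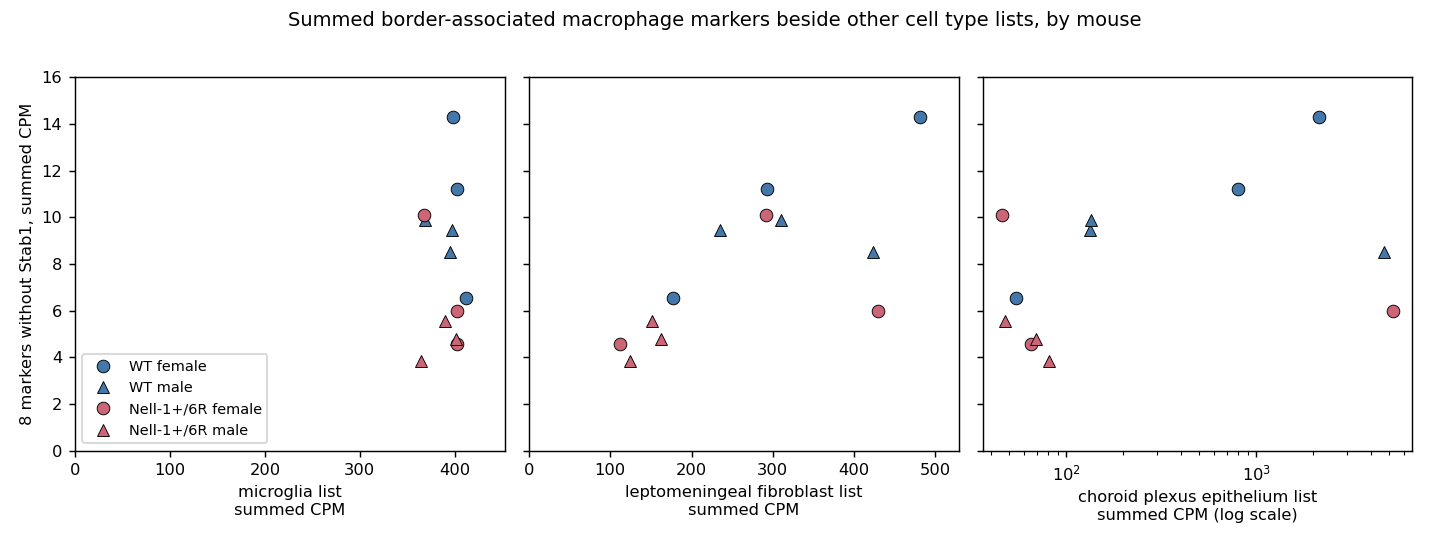
Summed level of the 8 marker genes without Stab1 (y axis, CPM) against the summed level of microglial, leptomeningeal fibroblast and choroid plexus genes (x axes, CPM, the last on a log scale), 1 symbol per mouse. The microglial sum stays between 365 and 412 CPM in all 12 mice, while the leptomeningeal sum spans 112 to 481 CPM and the lowest mice on both axes are Nell-1+/6R.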

How the data were processed

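Hippocampal RNA of 12 mice was sequenced as single 50-base reads. Per the labels and the study's methods, the authors aligned the reads to mm10 with HISAT2 (2.1.0 in the submitters' processing notes) and counted them per Entrez gene with featureCounts (2.0.1 in those notes, whereas the methods name another version). The deposited values are raw counts of reads per gene. The sources used here state neither the strand setting nor the treatment of reads with several matches. Symbols came from RefSeq (25275 of 27179 IDs matched).

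Genes with at least 0.2 CPM in at least 2 mice were tested, the study's own filter. The test was edgeR 4.0.16's quasi-likelihood test with TMM factors and sex and genotype in the model (R 4.3.3), with Benjamini-Hochberg adjustment. Calls used the study's thresholds, p under 0.05 and a fold above 1.5. A model with 4 sex and genotype groups tested each sex and the interaction. Single genes were also tested by exact two-sided permutation of log2(CPM + 0.5), where the smallest possible p is 0.00216. CPM are per TMM-scaled library. Exon lengths came from GENCODE M21. Total counts, 10834905 to 16016317, limit the precision of low genes. Each sample is 1 mouse.

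The alternatives were limma-voom (limma 3.58.1), DESeq2 (1.42.0), other scalings, filters and models, and each mouse left out. The fit was tested on simulated data. The members and lists were chosen with earlier results of these data known. All 9 members are named, as are listed genes past the thresholds, up to 5 of the most abundant of a list, and the 10 genes most like the members' mean. Neurod6, Wfs1 and Spi1 were chosen after their values were seen, as were the motifs.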

Additional observations from a re-analysis of the deposited data

Results flagged for a closer look

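A sample that stood far from the others of its genotype was sought by Dixon's test in 22 groups of 6 mice, where chance alone marks about 1 in 20 groups, and 4 groups held one. Nell-1+/6R female replicate 3 accounted for 3 of them, with Lyve1 at 1.42 CPM, Cbr2 at 1.20 CPM and the summed level of the 8 marker genes without Stab1 at 10.1 CPM, each above the other 5 Nell-1+/6R mice. The fourth was WT female replicate 1, with Lyve1 at 1.59 CPM above the other 5 WT mice. In that Nell-1+/6R female the leptomeningeal sum was 292 CPM and the choroid plexus sum 46.0 CPM, and in that WT female they were 481 and 2130 CPM. Their part in these values was not tested. With all 12 mice, the interaction of genotype with sex passed for none of the 9 genes.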

How the results depend on the processing

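Of the 9 marker genes, 5 passed the thresholds in edgeR with sex, beside 192 genes called lower in all. The counts were 5 and 187 with DESeq2's size factors, 5 and 193 with upper-quartile factors, 5 and 193 with limma-voom, and 5 and 235 without a filter. DESeq2 gave 4 and 135 and edgeR with genotype alone 4 and 177, the member lost being Lyve1 each time. Stricter filters left fewer genes to test: with at least 1 CPM in at least 6 mice 4 members were tested and 2 passed, beside 75 genes called lower in all, and with edgeR's filterByExpr 5 were tested and 2 passed, beside 83. With the leptomeningeal sum as a covariate 1 member and 94 genes in all were called lower. Leaving out 1 mouse at a time gave 3 to 6 members and 140 to 312 genes. It gave 3 members without WT female replicate 1, WT male replicate 1 or 2, Nell-1+/6R female replicate 2, or Nell-1+/6R male replicate 1 or 3, and 312 genes without Nell-1+/6R female replicate 1. Mrc1, Cd163 and Pf4 passed in all 12 of these fits, Cbr2 in 5, Lyve1 in 3 and Folr2 in 2. No setting gave any member an adjusted p under 0.05.

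Ms4a7 changed direction under limma-voom (0.085), with the covariate (0.97), without both WT female replicate 1 and Nell-1+/6R female replicate 3 (0.26), and between -0.71 and 0.23 as mice were left out. The other 8 genes kept theirs in every setting run. The log2 ratio of the summed level of the 9 genes was -0.41 and stayed between -0.50 and -0.35 as mice were left out. The interaction with sex turned for Mrc1 (-0.22 to 0.61), Lyve1 (-1.18 to 0.19) and F13a1 (-0.076 to 0.57), and that of Cd163 passed (-1.22) without Nell-1+/6R female replicate 2. The cause was not tested. Same-numbered mice did not consistently deviate together (r from -0.52 to 0.51, above 0.1 in 3 of 6 pairs), and with the replicate number as a replicate block 5 members and 169 genes in all were called lower. Low counts limit Pf4, Lyve1, Cbr2, Folr2 and Ms4a7, each under 80 counts per genotype.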
